A study of Mus musculus with 6 samples.

Results

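The genes described here encode the colony-stimulating factors and their receptors in neutrophils from infected mouse corneas. They are the ligands Csf3 (G-CSF), Csf2 (GM-CSF) and Csf1 (M-CSF) and the receptor genes Csf3r, Csf2ra, Csf2rb, Csf2rb2 and Csf1r. The 8 genes were chosen by name, matched to Ensembl identifiers with the GENCODE M21 annotation, and make up 8 of the 54838 genes in the count tables. All 8 were detected in all 6 libraries and passed the filter on low counts.

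The neutrophils had been isolated by flow cytometry, for RNA sequencing, from corneas that had been infected for 24 h with the Pseudomonas aeruginosa strain PAO1. The cells came from Il1a-/- mice, which lack the inflammatory cytokine IL-1 alpha, or from WT mice, with 3 libraries per genotype. Every library came from an infected eye, so levels without infection were not analysed here. The labels number biological replicates and do not name strain, age or the animals behind each library. The p-values therefore weigh differences only against the spread between these libraries, which may be technical in part.

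Colony-stimulating factors are secreted proteins that control how myeloid cells are made, how long they live and how strongly they respond. G-CSF acts through a receptor built of identical Csf3r chains and drives neutrophil production, while GM-CSF binds the alpha chain Csf2ra, which signals together with the common beta chain Csf2rb. Mice carry a further beta chain gene, Csf2rb2, whose product serves the IL-3 receptor, and M-CSF signals through the tyrosine kinase Csf1r, which is best known from monocytes and macrophages. These receptors activate JAK kinases and STAT factors, apart from Csf1r, which is itself a kinase.

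The libraries held 22855676 to 32295293 gene counts in Il1a-/- and 25721159 to 33626008 in WT. Il1a was at 2.89, 5.37 and 5.15 CPM (counts scaled to a common library size) in the Il1a-/- libraries, against 5116, 6195 and 8776 CPM in the WT libraries, as the labels say. Along the first principal component Il1a-/- replicate 2 was far from the rest, with a score of 67.3, where the remaining 5 libraries scored -32.9 to 2.10. The 12 neutrophil markers summed to 25527 to 28949 CPM in Il1a-/- and 27398 to 32109.7 CPM in WT. Most of this sum came from S100a9 and S100a8, at means of 13712.5 and 9991 CPM over the 6 libraries, followed by Fpr1 at 1960 CPM. Levels differed widely within the list, and Ly6g averaged 12.9 CPM and Camp 9.51 CPM. Marker genes of T, B and NK cells summed to at most 1.76 CPM in any library.

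Csf3 and Csf3r were the most abundant members, Csf2 was the least abundant, and none of the 8 genes passed the test for a difference between genotypes. By the edgeR quasi-likelihood test with Benjamini-Hochberg adjustment over all 11924 genes tested, 0 of the 8 passed a threshold of 0.05 in either direction, and 0 had an unadjusted p under 0.05. Of all genes tested, 12 passed (0.101%), of which 9 were higher (0.0755%) and 3 lower (0.0252%) in Il1a-/-. The 12 included 10 within 15 Mb of Il1a on its chromosome, with Il1a itself counted among the 10. An unadjusted p under 0.05 was found for 714 (5.99%) of all genes tested. DESeq2 and limma-voom also called 0 of the 8. The fitted differences were positive for 6 members and negative for 2, with a median log2 fold change of 0.16, beside 0.0045 over all genes tested. Of all genes tested, 50.7% had a positive difference. For 5 members the whole 95% interval of the difference was under 1.5-fold in size, and for 7 members under 2-fold, against 27.3% and 51.9% of all genes tested. All members but Csf2 ranked in the top 7.78% of genes by mean RPKM (CPM per kilobase of exon). The shares over all genes were not matched for level, on which interval width depends.

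**Figure D1:**
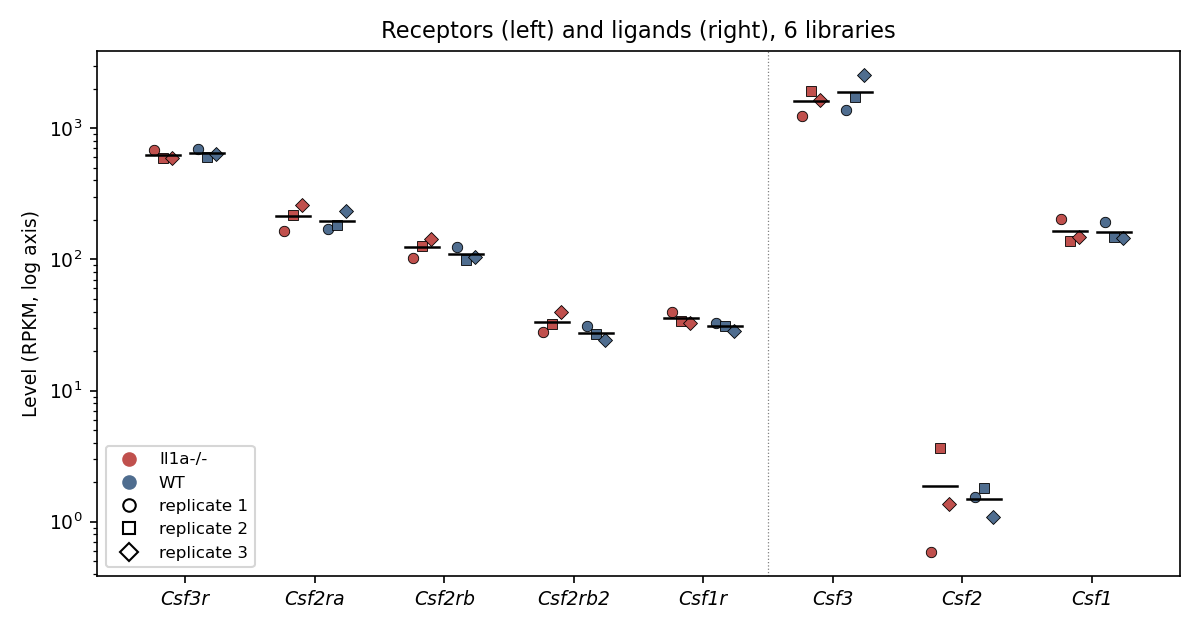
Level of each receptor gene (left of the dotted line) and ligand gene (right) in the 6 libraries, in RPKM (CPM per kilobase of exon) on a log axis. Il1a-/- libraries stand left of WT libraries, marker shapes give the replicate and bars the mean of 3 libraries. Csf3 lies above 1000 RPKM in all 6 libraries and Csf2 below 4.

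Csf3 encodes G-CSF, the main factor for the production and release of neutrophils (ENSMUSG00000038067, GRCm38 chr11:98701263-98703629, plus strand). Its level was 1746, 2727 and 2318 CPM in the Il1a-/- libraries, against 1928, 2437 and 3617 CPM in the WT libraries. The groups overlapped, and in both genotypes replicate 1 was the lowest. The means were 2264 ± 493 CPM in Il1a-/- and 2660.4 ± 867 CPM in WT (SD, n = 3 each). The log2 fold change was -0.23 (SE 0.23, 95% interval -0.74 to 0.27, edgeR adjusted p = 0.95), and it was 0.05 without WT replicate 3, the highest library. Csf3 took 0.184% to 0.335% of all gene counts in a library. Ranked by mean RPKM it stood at place 30 of 11922 genes, which is the top 0.252%.

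Csf2 encodes GM-CSF, which activates mature neutrophils and macrophages (ENSMUSG00000018916, GRCm38 chr11:54247271-54249667, minus strand). It was at 0.472, 2.93 and 1.09 CPM in Il1a-/- and at 1.24, 1.45 and 0.868 CPM in WT, from 15, 95 and 25 counts in Il1a-/- and 33, 45 and 27 counts in WT. Il1a-/- held both the lowest and the highest library. The means were 1.5 ± 1.28 CPM in Il1a-/- and 1.18 ± 0.294 CPM in WT (SD, n = 3 each). The log2 fold change of 0.34 had a 95% interval from -1.01 to 1.70 (SE 0.61, edgeR adjusted p = 0.97), which includes a 2-fold difference in either direction. Without Il1a-/- replicate 2 the log2 fold change was -0.62.

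The deposited count also misses part of the Csf2 signal. An antisense gene, Gm12223, overlaps 96 coding bases of Csf2 at GRCm38 chr11:54247600-54247695, and the kit does not mark strand, so reads in these bases cannot be given to either gene. They are shown here on the Csf2 strand (minus), read from the GENCODE M21 transcript, because reads that touch them are lost from the unstranded count of Csf2.
Csf2: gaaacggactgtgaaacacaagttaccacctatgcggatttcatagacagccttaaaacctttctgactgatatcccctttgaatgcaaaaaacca
Gm12223 itself had 0 unstranded counts in all 6 libraries. In the sum of both strand columns, where the overlap does not remove reads, Csf2 had 41, 179 and 52 counts in Il1a-/- and 51, 95 and 62 in WT, between 1.55 and 2.73 times the unstranded count. By these counts replicate 2 was again the highest of each genotype and replicate 1 the lowest of Il1a-/-, while the lowest of WT was replicate 1 in place of replicate 3.

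Csf1 encodes M-CSF, the survival factor of the macrophage lineage (ENSMUSG00000014599, GRCm38 chr3:107741048-107760469, minus strand). It was at 1079, 724 and 785 CPM in Il1a-/- and at 1014, 785 and 762 CPM in WT. Replicate 1 of each genotype was the highest and the remaining libraries lay close together. The means of 863 ± 190.2 CPM in Il1a-/- and 853 ± 139 CPM in WT (SD, n = 3 each) differed by a log2 fold change of 0.02 (SE 0.17, 95% interval -0.36 to 0.39, edgeR adjusted p = 0.99). The sign turned when Il1a-/- replicate 1, WT replicate 2 or WT replicate 3 was left out, with a lowest value of -0.18.

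Csf3r encodes the G-CSF receptor (ENSMUSG00000028859, GRCm38 chr4:126024550-126044440, plus strand). It was at 2461, 2134 and 2144 CPM in Il1a-/- and at 2489, 2180.0 and 2276 CPM in WT. The spread was small in both genotypes and the groups overlapped, with replicate 1 highest in each. The means were 2246 ± 186 CPM in Il1a-/- and 2315 ± 158 CPM in WT (SD, n = 3 each). With a log2 fold change of -0.04 (SE 0.11, 95% interval -0.29 to 0.20, edgeR adjusted p = 0.99), Csf3r had the narrowest interval of the 8 genes. Scaling by library size alone gave 0.01, where the median of all genes was shifted to 0.06. A processed pseudogene, AC105061.2, shares 8.84% of the 50-base windows of the Csf3r exons, and reads in these windows may not be placed uniquely.

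Csf2ra encodes the alpha chain that binds GM-CSF (ENSMUSG00000059326, GRCm38 chr19:61223957-61228429, minus strand). It was at 473, 625 and 746 CPM in Il1a-/- and at 490.2, 524 and 669 CPM in WT. In both genotypes replicate 1 was lowest and replicate 3 highest, and the groups overlapped. The means were 614 ± 137 CPM in Il1a-/- and 561 ± 94.7 CPM in WT (SD, n = 3 each). The log2 fold change was 0.13 (SE 0.18, 95% interval -0.26 to 0.52, edgeR adjusted p = 0.97), and it was -0.03 without Il1a-/- replicate 3. No 50-base window of its exons was found in another gene.

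The beta chains are neighbours on chromosome 15, on opposite strands, and are near copies of each other. Csf2rb (ENSMUSG00000071713, GRCm38 chr15:78325752-78353847, plus strand) encodes the chain shared by the receptors for GM-CSF, IL-3 and IL-5, and Csf2rb2 (ENSMUSG00000071714, GRCm38 chr15:78282507-78305721, minus strand) the mouse chain used by IL-3. Their coding sequences, of 2688 bases in Csf2rb and 2634 bases in Csf2rb2, were aligned over 2628 bases and were 95.2% identical, with 125 mismatches and a longest identical run of 242 bases. Of the 50-base windows of their exons, 892 were shared, which is 12.3% of those of Csf2rb and 18.4% of those of Csf2rb2. The aligned coding windows of 90 bases with the most and the fewest differences show where a read can tell the genes apart. In the first pair there are 16 differences, marked by capitals, at chr15:78338897-78338986 (plus strand, exon 5 of Csf2rb) and chr15:78294345-78294434 (minus strand, exon 4 of Csf2rb2), both GRCm38 and read from GENCODE M21 transcripts.
Csf2rb: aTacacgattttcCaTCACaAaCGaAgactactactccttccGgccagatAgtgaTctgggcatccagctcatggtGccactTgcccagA
Csf2rb2: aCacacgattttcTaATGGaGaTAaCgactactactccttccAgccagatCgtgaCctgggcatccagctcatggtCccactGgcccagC
In the second, at chr15:78341658-78341747 (plus strand) in Csf2rb and chr15:78291563-78291652 (minus strand) in Csf2rb2, there are 0 differences and the sequence is the same in both.
Csf2rb and Csf2rb2: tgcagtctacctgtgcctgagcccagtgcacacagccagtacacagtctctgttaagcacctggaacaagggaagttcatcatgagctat
Reads that fall wholly in such identical stretches cannot be placed in either gene, so both counts leave out part of each gene and their levels are uncertain to that extent.

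Csf2rb was at 744, 924 and 1038 CPM in Il1a-/- and at 901, 723 and 761 CPM in WT. The groups overlapped, since Il1a-/- replicate 1 lay below WT replicates 1 and 3. The means were 902 ± 148 CPM in Il1a-/- and 795 ± 94.0 CPM in WT (SD, n = 3 each), a log2 fold change of 0.18 (SE 0.14, 95% interval -0.14 to 0.50, edgeR adjusted p = 0.94). It was 0.30 without Il1a-/- replicate 1, 0.068 without Il1a-/- replicate 3 and 0.12 without WT replicate 2. Csf2rb2 was at 131, 151 and 189 CPM in Il1a-/- and at 146, 129 and 114 CPM in WT. Here too Il1a-/- replicate 1 lay among the WT libraries. The means were 157 ± 29.3 CPM in Il1a-/- and 129.6 ± 15.9 CPM in WT (SD, n = 3 each), a log2 fold change of 0.28 (SE 0.16, 95% interval -0.07 to 0.62, edgeR adjusted p = 0.90). It was 0.39 without Il1a-/- replicate 1 and 0.12 without Il1a-/- replicate 3. Added together, which keeps reads given to the wrong copy, the pair was at 1059 ± 176 CPM in Il1a-/- and 924 ± 107 CPM in WT (SD, n = 3 each). Csf2rb2 gave 14.8% ± 0.686 of the pair's counts in Il1a-/- and 14.0% ± 1.02 in WT (SD, n = 3 each).

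Csf1r encodes the M-CSF receptor (ENSMUSG00000024621, GRCm38 chr18:61100598-61132149, plus strand). It was at 230.4, 196 and 190.2 CPM in Il1a-/- and at 188, 181 and 164 CPM in WT. The groups did not overlap, which held for 1 of the 8 members and for 11.6% of all genes tested. The means were 206 ± 21.7 CPM in Il1a-/- and 178 ± 12.2 CPM in WT (SD, n = 3 each). The log2 fold change was 0.21 (SE 0.12, 95% interval -0.06 to 0.48) and did not pass the test (edgeR unadjusted p = 0.11, adjusted p = 0.90). It was 0.11 without Il1a-/- replicate 1, the highest library. In bulk libraries, more cells of a type and more RNA per cell cannot be told apart.

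Markers of monocytes and macrophages, the cells best known for Csf1r, were read from the same libraries. The 15 markers summed to 482, 531 and 552 CPM in Il1a-/- and to 401, 458 and 450 CPM in WT, and the groups did not overlap. The mean of 14 of the 15 was higher in Il1a-/-, and 0 of the 15 were at 0 in all libraries. Of the 13 tested, 0 were called by the edgeR test, against 0.101% of all genes, and 8 had an unadjusted p under 0.05, against 5.99% of all genes. These 8, all higher in Il1a-/-, were Pf4, C1qa, C1qb, C1qc, F13a1, Mrc1, Ccr2 and Ms4a7, with log2 fold changes of 1.60 to 2.71. The median log2 fold change of the 13 was 1.74, beside 0.0045 over all genes tested. The list was chosen with earlier results of these data known, so these values are a description and not independent support. The 3 most abundant markers were not among the 8. Cd68, a lysosomal glycoprotein gene, was at 337, 331 and 377 CPM in Il1a-/- and at 283, 336 and 307 CPM in WT. Adgre1, the gene of F4/80, was at 86.4, 79.8 and 72.1 CPM in Il1a-/- and at 58.2, 63.4 and 83.4 CPM in WT. Ly6c2, a monocyte surface gene, was at 27.9, 21.8 and 29.9 CPM in Il1a-/- and at 32.9, 31.6 and 33.3 CPM in WT, lower in Il1a-/- without overlap but not called. These 3 genes make up most of the sum, and the 8 averaged 0.811 to 17 CPM in Il1a-/- and 0.264 to 4.62 CPM in WT. Within Il1a-/-, Csf1r and Adgre1 were both highest in replicate 1, while Cd68 and Ly6c2 were highest in replicate 3. The marker sum was lowest in replicate 1. The part of these cells in the levels of Csf1r, and of the beta chains that they also express, was not tested. Hmgxb3, which overlaps 873 exon bases of Csf1r on the opposite strand, was at 10.8 ± 1.36 CPM in Il1a-/- and 9.05 ± 1.62 CPM in WT (SD, n = 3 each). As for Csf2, reads in these bases are lost from the unstranded count. Csf1r had 7328, 6357 and 4356 unstranded counts in Il1a-/- and 5027, 5607 and 5108 in WT. In the sum of both strand columns it had 7435, 6402 and 4432 in Il1a-/- and 5098, 5670 and 5168 in WT. By these sums the log2 fold change of Csf1r was 0.22.

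**Figure D2:**
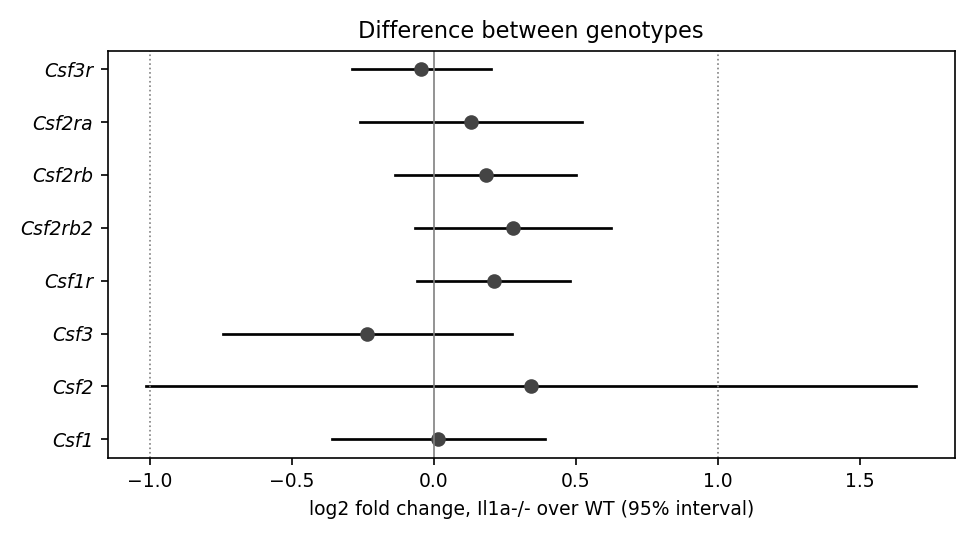
Fitted log2 fold change of each of the 8 genes, Il1a-/- over WT, with its 95% interval from the edgeR quasi-likelihood fit. Dotted lines mark a 2-fold difference in either direction. All 8 intervals include 0, and that of Csf2, from -1.01 to 1.70, is the widest.

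Set side by side per length, the members fell into an order. Mean RPKM over exons was 1602 ± 349 in Il1a-/- and 1883 ± 613 in WT for Csf3, and 622 ± 51.6 in Il1a-/- and 641 ± 43.9 in WT for Csf3r (SD, n = 3 each). Csf2ra followed at 214 ± 47.8 RPKM in Il1a-/- and 195 ± 33.0 RPKM in WT, then Csf1 at 163 ± 36.0 RPKM in Il1a-/- and 162 ± 26.4 RPKM in WT. Csf2rb was at 124 ± 20.3 RPKM in Il1a-/- and 109 ± 12.9 RPKM in WT. These 5 genes all ranked in the top 2.99% of genes by mean RPKM. Csf1r was at 35.6 ± 3.76 RPKM in Il1a-/- and 30.8 ± 2.11 RPKM in WT. Csf2rb2 was at 33.2 ± 6.18 RPKM in Il1a-/- and 27.3 ± 3.36 RPKM in WT, and Csf2 at 1.87 ± 1.60 RPKM in Il1a-/- and 1.48 ± 0.367 RPKM in WT. The ranges over the 6 libraries overlapped for the neighbours Csf2ra and Csf1, Csf1 and Csf2rb, and Csf1r and Csf2rb2, and did not overlap for the other neighbours. Csf2ra was above Csf1 in 4 of 6 libraries and Csf1r above Csf2rb2 in 5 of 6, so these orders did not hold in each library. The length of the longest coding transcript in place of all exons gave the same order of means.

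The balance between ligand and receptor transcripts overlapped between the genotypes. Csf3 exceeded Csf3r per length by 1.81, 3.26 and 2.76 times in the Il1a-/- libraries and by 1.98, 2.85 and 4.06 times in the WT libraries. Csf1 exceeded Csf1r per length by 5.12, 4.04 and 4.51 times in Il1a-/- and by 5.89, 4.75 and 5.07 times in WT. Csf3 exceeded Csf2 per length by at least 527 times in each of the 6 libraries.

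The receptor chains were compared with each other within each library, which removes differences in depth. Csf2rb2 over Csf2rb was 0.271, 0.251 and 0.280 per length in Il1a-/- and 0.249, 0.273 and 0.231 in WT. The log2 difference of 0.09 gave p = 0.3 in a two-sided exact permutation test over 6 libraries, which cannot give less than 0.1, and an adjusted p of 0.6 over the 3 ratios tested. Csf2rb over Csf2ra, the beta to alpha balance of the GM-CSF receptor, was 0.622, 0.583 and 0.549 in Il1a-/- and 0.725, 0.544 and 0.449 in WT. Its log2 difference was 0.06 (exact permutation p = 0.8, adjusted p = 0.8) and -0.11 without WT replicate 3, against 0.24 without WT replicate 1. Csf2rb over Csf3r was 0.150, 0.215 and 0.240 in Il1a-/- and 0.180, 0.164 and 0.166 in WT, a log2 difference of 0.22 (exact permutation p = 0.4, adjusted p = 0.6). It was 0.42 without Il1a-/- replicate 1 (exact permutation p = 0.1, the smallest possible) and 0.080 without Il1a-/- replicate 3. The groups overlapped for all 3 ratios.

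**Figure D3:**
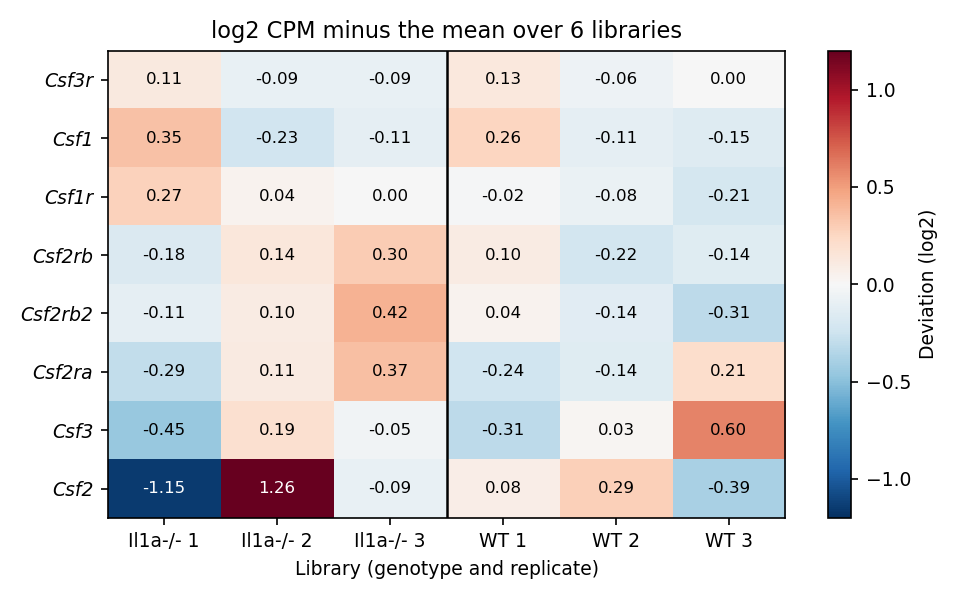
Deviation of each gene from its own mean over the 6 libraries, in log2 CPM, with Il1a-/- libraries left of the black line and WT libraries right of it. Csf3r and Csf1 are above their means in replicate 1 of both genotypes, where Csf3 and Csf2ra are below theirs.

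Among the 6 libraries the members did not all move together, as the map of deviations by library shows. Csf3r, Csf1 and Csf1r were each highest in replicate 1 of both genotypes. Csf3 and Csf2ra were each lowest in replicate 1 of both genotypes. Csf2rb and Csf2rb2 had the same order of libraries in Il1a-/-, with replicate 3 highest, and both were highest in replicate 1 in WT. Nothing in the labels ties a replicate number to a shared animal or day.

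The genes with the most similar pattern over the 6 libraries were taken from 5662 genes that averaged 5 CPM or more, by Pearson's r of log2 CPM. With so many candidates and 6 points that share their libraries, high values arise easily, and they are given as a description. For Csf3r the closest was Lrrfip1 (r = 0.98), followed by Fgd4 and Zeb1. For Csf2ra it was Nfkb1 (r = 0.99), an NF-kB subunit gene, followed by Rsrp1 and Rictor. For Csf2rb it was Ago2 (r = 0.99), an RNA silencing gene, followed by Unc45a and Gm17056. Csf2rb2 was closest to Mirt2, Rps28 and 4933423P22Rik, and Csf1r to Stk10, Crat and Utp3. Csf1 was closest to Clec4a2, Rin3 and Plekhg2, and Csf3 to Wwc2, Impdh1 and Lemd2. Csf2 was below the level required.

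The genes around the receptors were read off the same fit in 5 lists that hold 101 genes. Of the 87 that were tested, 0 were called by the edgeR test, against 0.101% of all genes, and 4 (4.60%) had an unadjusted p under 0.05, against 5.99% of all genes. Groups did not overlap for 10 of the 87 (11.5%), against 11.6% of all genes. The median log2 fold change over the 87 was -0.06, beside 0.0045 over all genes tested. Of the 87, 31 were above 0, against 50.7% of all genes tested.

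Of 13 related cytokines and receptors, 4 were tested, with a median log2 fold change of -0.20 and 0 of the 4 under an unadjusted p of 0.05 or without overlap between groups. Il6ra, the IL-6 receptor alpha chain, was at 38.4 ± 4.44 CPM in Il1a-/- and 48.6 ± 7.68 CPM in WT (SD, n = 3 each). Kit, the receptor for stem cell factor, was at 6.57 ± 2.43 CPM in Il1a-/- and 9.53 ± 0.972 CPM in WT. Il3ra, the alpha chain that pairs with the products of Csf2rb and Csf2rb2 to bind IL-3, was at 1.01 ± 0.472 CPM in Il1a-/- and 1.06 ± 0.456 CPM in WT, and Il6st, the signalling chain of the IL-6 receptor, at 2.56 ± 1.3 CPM in Il1a-/- and 2.52 ± 0.573 CPM in WT. Il3 and Il5, whose products share the common beta chain with GM-CSF, and Epor, the erythropoietin receptor gene, had 0 counts in all 6 libraries. In the shallowest library a count of 0 allows up to 0.131 CPM (3 counts), and this limit covers counting error only.

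Of 27 genes that act next to the receptors, all were tested, with a median log2 fold change of -0.03 and 11 above 0. Stat5a, a main transcription factor downstream of GM-CSF, was at 18.5, 27.8 and 23.1 CPM in Il1a-/- and at 17.2, 15.9 and 8.27 CPM in WT. The groups did not overlap, but the log2 fold change of 0.74 (SE 0.27) did not pass after adjustment (edgeR unadjusted p = 0.019, adjusted p = 0.74). Stat3, the factor most tied to G-CSF, was at 712 ± 54.5 CPM in Il1a-/- and 823 ± 25.2 CPM in WT. Sos1, a Ras activator, was at 7.18 ± 0.817 CPM in Il1a-/- and 9.58 ± 0.544 CPM in WT, and Pik3r1, a PI3 kinase subunit, at 17.1 ± 2.10 CPM in Il1a-/- and 21.4 ± 3.01 CPM in WT. Jak2, the kinase bound to the beta chains, was picked with its values known and was at 620 ± 45.8 CPM in Il1a-/- and 581 ± 71.3 CPM in WT.

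Of 18 inhibitors of these receptors, 17 were tested, with a median log2 fold change of -0.10 and 0 of 17 under an unadjusted p of 0.05. Socs3, the STAT3-induced brake on the G-CSF receptor, was at 3551 ± 460.2 CPM in Il1a-/- and 3748 ± 145 CPM in WT. Cish, a STAT5-induced inhibitor, was at 172 ± 42.0 CPM in Il1a-/- and 166 ± 2.04 CPM in WT. Both were picked with their values known. Cblb, a ubiquitin ligase, was at 4.09 ± 2.44 CPM in Il1a-/- and 1.85 ± 1.04 CPM in WT, and its highest library was Il1a-/- replicate 2 at 6.91 CPM. Ptpn11, Dok2 and Dok3 had log2 fold changes of -0.24, -0.35 and -0.23.

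Of 27 STAT3 and STAT5 target genes, 26 were tested, with a median log2 fold change of -0.06 and 8 above 0. Cebpd, a transcription factor gene, was at 73.8 ± 13.1 CPM in Il1a-/- and 102 ± 27.1 CPM in WT, and Il4ra, the IL-4 receptor alpha chain, at 628 ± 33.6 CPM in Il1a-/- and 739 ± 10.8 CPM in WT. These were the 2 with an unadjusted p under 0.05. Id2, an inhibitor of DNA binding, was at 85.1 ± 3.58 CPM in Il1a-/- and 71.4 ± 7.84 CPM in WT, and Pim1, a kinase gene induced by STAT factors, at 291 ± 51.9 CPM in Il1a-/- and 343 ± 21.8 CPM in WT.

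Of 16 genes that induce, stabilise or degrade colony-stimulating factor transcripts, or act in those pathways, 13 were tested, with a median log2 fold change of -0.11 and 5 above 0. Il6, the gene of interleukin 6, was at 9.49 ± 3.04 CPM in Il1a-/- and 4.56 ± 1.08 CPM in WT, with a log2 fold change of 1.06 that did not pass (SE 0.29, edgeR unadjusted p = 0.0045, adjusted p = 0.54). Tnf, the gene of tumour necrosis factor, was at 1012 ± 185 CPM in Il1a-/- and 838 ± 85.0 CPM in WT. Il1rap, the shared chain of the IL-1 receptor, was at 1173 ± 76.9 CPM in Il1a-/- and 1348 ± 191 CPM in WT, and Elavl1, which stabilises such transcripts, at 46.4 ± 6.34 CPM in Il1a-/- and 53.8 ± 7.19 CPM in WT. Il17a and Il17f had 0 counts in all 6 libraries.

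**Figure D4:**
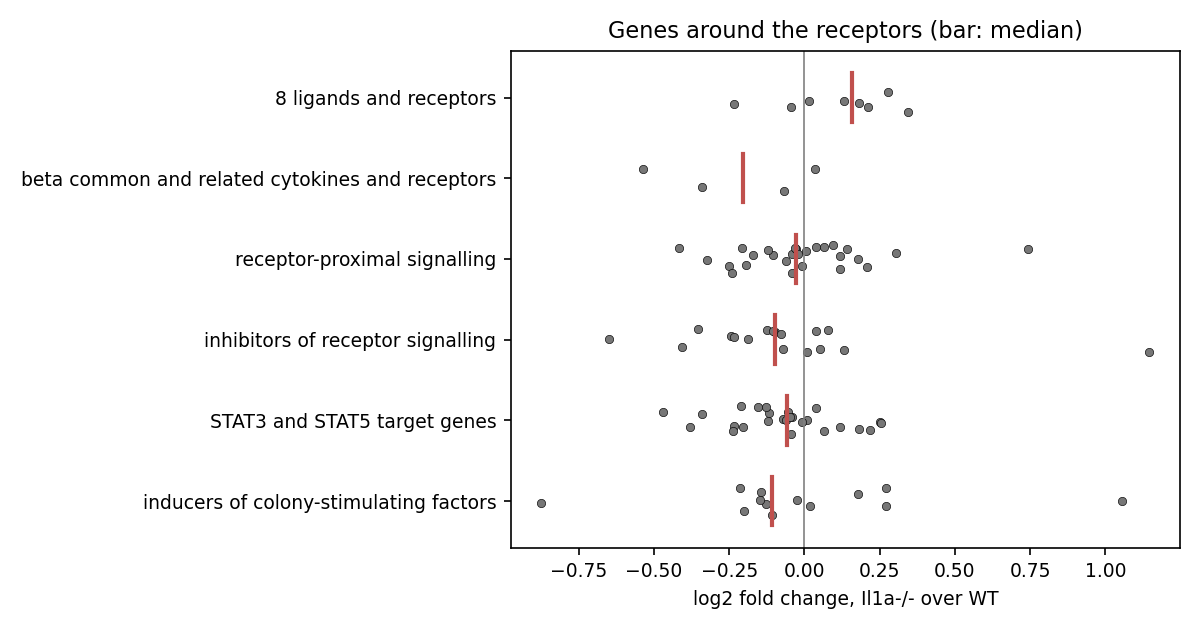
Fitted log2 fold change, Il1a-/- over WT, of the 8 ligand and receptor genes and of the tested genes of the 5 lists around them. Each point is a gene, spread vertically for legibility, and bars mark medians. The medians of the 5 lists lie between -0.20 and -0.03, and that of the 8 genes at 0.16.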

How the data were processed

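Each deposited file holds raw gene counts in 1 unstranded column, which was used, and in 2 columns by read strand. Per the labels, RNA was purified with a micro column kit and libraries were made with SMART-Seq v4, which does not mark strand. FastQC 0.11.9, Trimmomatic 0.39, STAR 2.7.8a, GRCm38 and mm10 appear in the submitters' processing notes. The annotation release is not given in the sources used here.

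GENCODE M21 gave symbols, positions, lengths and transcript sequences for 54809 of 54838 genes. Counts were scaled by TMM and filtered with edgeR's default filter by group (11924 genes with 99.91% of the counts). The 6 libraries, Il1a-/- against WT, went into the robust quasi-likelihood test of edgeR 4.0.16 under R 4.3.3. P-values were adjusted by Benjamini-Hochberg over all genes tested, with a threshold of 0.05. For CPM, library sizes were corrected with the TMM factors, and for RPKM the CPM were divided by exon length. Log2 CPM used a prior count of 3. Ratios within libraries were tested by exact permutation. Genes were named by rule, as all members, the 4 smallest p in each pathway list, the 3 most abundant genes in each marker list and the 3 most similar genes to each member. The marker rule was carried out for the neutrophil and the macrophage lists only. Named outside the rule were Ly6g, Camp and the 8 macrophage markers with an unadjusted p under 0.05. So were Jak2, Socs3, Cish, Elane, Mmp8 and genes without counts. The members and lists were chosen with earlier results of these data known. The procedure was tested on simulated counts, with changes set in genes that averaged 5 CPM or more, a level that Csf2 did not reach. Each simulated gene had the spread fitted for its level, with no spread of its own and no outlying library. The procedure recovered 13 of 50 genes changed 1.5-fold, 39 of 50 changed 2-fold, 49 of 50 changed 4-fold and 50 of 50 changed 8-fold. It called 7 of 11214 unchanged genes. Small changes can therefore go uncalled. Alternatives were DESeq2 1.42.0, limma-voom 3.58.1, other scalings and filters, strand columns, a replicate block and each library left out, and those for the ratios were added after seeing the data. Figures were drawn with matplotlib 3.10.9.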

Additional observations from a re-analysis of the deposited data

How the results depend on the processing

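Under all 15 settings tried, 0 of the 8 members were called, and 1 (Csf2rb2) had an unadjusted p under 0.05 without Il1a-/- replicate 1. Over all genes, 12 calls became 185 without the filter on low counts, 21 with at least 5 CPM in 3 libraries, 20 with a replicate block and 69 with DESeq2, and they ranged from 7 to 24 with 1 library left out (24 without Il1a-/- replicate 1, 7 without WT replicate 1 or WT replicate 2). Of the genes in the pathway lists, 0 became 3 without the filter (Il6, Stat5a and Elane, whose counts lie in WT replicate 3 alone), and 0 to 1 with 1 library left out (Mmp8, without Il1a-/- replicate 1). Log2 fold changes that changed sign were those of Csf3r, 0.013 by library size alone, and, with 1 library left out, Csf2ra (-0.034 to 0.28), Csf1 (-0.18 to 0.14), Csf2 (-0.62 to 0.76) and Csf3 (-0.44 to 0.051). Il3ra was 0.013 by library size alone and -0.40 to 0.33 with 1 library left out. Il6st was -0.058 with the replicate block, -0.00064 by limma-voom and -0.45 to 0.30 with 1 library left out. The log2 difference of the ratio of Csf2rb to Csf2ra ranged from -0.11 (without WT replicate 3) to 0.24 with 1 library left out, that of Csf2rb2 to Csf2rb from 0.035 to 0.16, and that of Csf2rb to Csf3r from 0.080 (without Il1a-/- replicate 3) to 0.42 (without Il1a-/- replicate 1). The causes were not tested. Csf2rb (0.068 to 0.30), Csf2rb2 (0.12 to 0.39) and Csf1r (0.11 to 0.26) stayed above 0 with 1 library left out and under the other settings. Same-numbered libraries of the genotypes correlated at 0.14, 0.0572 and 0.00338 in their deviations over all genes tested, so the numbers were not taken as pairs. With the replicate block the SE fell for Csf2ra (0.176 to 0.120), Csf1 (0.169 to 0.115) and Csf3 (0.228 to 0.154). It rose for Csf2rb (0.143 to 0.153) and Csf2rb2 (0.155 to 0.168). Csf2 rests on 15 to 95 counts, and these spread widely within Il1a-/-. Csf2 had no value under the 5 CPM filter.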

Other observations

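Csf2ra stood apart in the strand columns, which split near to evenly for an unstranded kit. Between 45.07% and 45.48% of its strand-column counts fell in the first strand column in all 6 libraries, and 4 of 1947 genes with at least 1000 counts in each library (0.205%, Csf2ra included) had a mean that low or lower. Csf3r, at 49.4% to 50.52%, and Csf3, at 49.35% to 50.16%, split evenly. No annotated gene overlaps Csf2ra in GENCODE M21.

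The summed markers of corneal epithelium, of keratocytes and fibroblasts, and of dendritic cells overlapped between the genotypes. Corneal epithelial markers, keratins among them, summed to 25.9, 112 and 33.3 CPM in Il1a-/- and to 19.4, 139.9 and 94.3 CPM in WT. Keratocyte and fibroblast markers summed to 12.4, 41.8 and 20.0 CPM in Il1a-/- and to 19.5, 21.1 and 36.7 CPM in WT. Dendritic cell markers summed to 3.90, 8.88 and 10.7 CPM in Il1a-/- and to 3.29, 4.06 and 3.89 CPM in WT. Their means were 7.81 ± 3.50 CPM in Il1a-/- and 3.75 ± 0.401 CPM in WT (SD, n = 3 each). For dendritic cells the overlap came only from Il1a-/- replicate 1, which lay below WT replicate 2.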
